A study of Mus musculus with 12 samples.

Results

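The genes described here are Srebf1, which encodes SREBP-1c, and 9 genes of de novo lipogenesis, Fasn, Acaca, Acacb, Acly, Scd1, Elovl6, Thrsp, Me1 and Pnpla3. They were taken from the gene expression table of mouse liver by their symbols. All 10 were found, each on 1 line of the table, among 23849 symbols in all, and all 10 were among the 9806 genes that were tested because they averaged 1 FPKM or more over the 12 livers. FPKM counts fragments in relation to transcript length and to the size of the library. Pnpla3 passed this limit through 1 liver only: its mean was 1.26 FPKM over the 12 livers and 0.482 FPKM without Policaptil ZT12 replicate 1.

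De novo lipogenesis builds fatty acids from acetyl-CoA in the cytosol of hepatocytes. SREBP-1c is made as a membrane-bound precursor, is held in the endoplasmic reticulum by Insig proteins and is carried by Scap to the Golgi, where it is cut to release the active transcription factor. Insulin and the oxysterol receptor LXR raise transcription of its gene, SREBP-1c acts on its own promoter, and its targets respond together with those of the sugar-sensing factor ChREBP. Because mice eat mostly in the dark, the liver genes of this pathway vary with feeding as well as with the clock.

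All mice were male, of C57BL/6J background, 8 weeks old according to the design text and fed a high-fat diet. Vehicle (drinking water) or Policaptil Gel Retard, a gel-forming fiber complex that the sample labels call Libramed, was given by oral gavage once a day shortly before lights off, for 2 weeks. Livers were taken at ZT0 (lights on, the end of the active phase) or ZT12 (lights off, its start), which gave 4 groups of 3 livers. No mouse of another diet is among these 12 samples, so the groups show time and treatment on a high-fat diet only.

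The clock genes followed the labelled times. Dbp lay between 1.85 and 27.2 FPKM in the 6 livers of ZT0 and between 49.8 and 83.5 FPKM in the 6 of ZT12, and Arntl between 4.95 and 9.99 and between 1.09 and 2.44 FPKM. Hepatocyte genes were abundant, with Apoa1 between 20223 and 32458 FPKM, although albumin is listed at 0 in every liver. The adipocyte genes Lep and Retn were at 0 in all 12 livers, and Adipoq and Plin1 reached at most 0.0493 and 0.0381 FPKM. The other 4 of the 8 adipocyte markers were detected, with Fabp4 between 6.97 and 15.1, Cidec between 0.55 and 4.69, Car3 between 1523.8 and 3205 and Cfd between 0.309 and 42.8 FPKM, the last being highest in vehicle ZT12 replicate 2. The part of fat tissue in the lipogenic levels was not tested. Policaptil ZT12 replicate 3 stood apart by skeletal muscle RNA, with 16.4 FPKM of Acta1, 10.4 of Ckm, 4.55 of Myh4 and 10.3 of Tnnt3, against at most 0.00991 FPKM of any of these in the other 11 livers. The summed muscle markers were 47.9 FPKM there and between 0.943 and 1.59 FPKM elsewhere. Since each value comes from a whole piece of liver, fewer hepatocytes and less RNA per hepatocyte cannot be told apart.

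Because the genes moved together between livers, promoter windows are printed for 3 of them. These had p under 0.05 by limma in at least 1 comparison of groups, Fasn only before adjustment. RefSeq windows (GRCm38.p6, 250 bases before to 50 after a start site) were at hand for 9 of the 10 genes, 12 windows in all, with 3 for Srebf1, 2 for Me1 and 1 each for the others but Scd1. The sequences below are read 5′ to 3′ on the minus strand, on which all 3 genes lie, and capitals mark CCAAT or its reverse complement ATTGG, the letters bound by NF-Y, a general partner of SREBPs.
Srebf1, window 1, chr11:60222532-60222831: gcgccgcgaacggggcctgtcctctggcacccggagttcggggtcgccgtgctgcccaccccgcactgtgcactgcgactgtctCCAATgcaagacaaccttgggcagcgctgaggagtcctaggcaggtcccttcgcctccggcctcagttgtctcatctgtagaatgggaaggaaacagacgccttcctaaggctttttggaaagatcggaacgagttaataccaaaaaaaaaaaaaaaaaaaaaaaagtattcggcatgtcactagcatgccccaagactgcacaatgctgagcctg
Srebf1, window 2, chr11:60220578-60220877: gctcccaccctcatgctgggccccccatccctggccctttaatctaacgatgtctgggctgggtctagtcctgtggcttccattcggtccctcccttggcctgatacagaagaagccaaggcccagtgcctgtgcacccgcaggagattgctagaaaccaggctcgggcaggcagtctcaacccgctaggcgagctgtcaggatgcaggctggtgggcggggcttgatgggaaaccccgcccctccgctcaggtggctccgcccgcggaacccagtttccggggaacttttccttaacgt
Srebf1, window 3, chr11:60210422-60210721: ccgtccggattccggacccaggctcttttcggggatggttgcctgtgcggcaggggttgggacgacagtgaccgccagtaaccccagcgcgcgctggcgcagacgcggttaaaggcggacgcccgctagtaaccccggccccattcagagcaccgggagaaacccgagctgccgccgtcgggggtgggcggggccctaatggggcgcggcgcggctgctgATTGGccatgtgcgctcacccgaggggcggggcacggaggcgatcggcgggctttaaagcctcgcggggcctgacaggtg
Fasn, chr11:120824498-120824797: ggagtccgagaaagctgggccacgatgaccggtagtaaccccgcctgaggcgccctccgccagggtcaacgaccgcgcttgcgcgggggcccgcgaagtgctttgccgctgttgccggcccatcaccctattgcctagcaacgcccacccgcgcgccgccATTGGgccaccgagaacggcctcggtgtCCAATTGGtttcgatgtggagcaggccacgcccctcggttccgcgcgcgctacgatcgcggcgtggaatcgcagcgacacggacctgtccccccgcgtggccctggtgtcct
Thrsp, chr7:97417501-97417800: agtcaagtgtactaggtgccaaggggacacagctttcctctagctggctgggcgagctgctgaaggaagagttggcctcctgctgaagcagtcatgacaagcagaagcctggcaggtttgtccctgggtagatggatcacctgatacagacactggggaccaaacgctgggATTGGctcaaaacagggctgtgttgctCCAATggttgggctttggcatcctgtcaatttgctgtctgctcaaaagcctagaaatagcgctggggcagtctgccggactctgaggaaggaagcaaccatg

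CCAAT on either strand was found in 8 of the 12 windows of the lipogenic genes, and 37.4% of all 32851 windows hold it. Fasn held 3 matches, which start 90, 62 and 59 bases before the start site, the last of them sharing 2 letters with the one before. Thrsp held 2, at 79 and 52 bases before it. The letters TCACNCCAC, a form of the sterol regulatory element, were in 0 of the 12 windows and in 1.24% of all, and CACGTG, an E-box, in 0 of the 12 and in 7.15% of all. GGGCGG was in 5 of the 12 windows against 35.7% of all, and TATAAA in 1 of the 12 against 13.6%. These matches describe letters in 300 bases and not binding.

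The genes spanned a wide range of levels in FPKM, which is scaled by transcript length. Thrsp, which encodes the Spot 14 protein that promotes lipogenesis, was the most abundant, with a mean of 1108 FPKM over the 12 livers. It was followed by Scd1, the desaturase that makes oleate and palmitoleate, with 371 FPKM, and by Srebf1 with 113 FPKM. Fatty acid synthase (Fasn) had 85.6 FPKM and ATP citrate lyase (Acly), which makes cytosolic acetyl-CoA, 63.4 FPKM. Malic enzyme (Me1), a source of NADPH, had 23.5 FPKM and Elovl6, which lengthens palmitate to stearate, 13.6 FPKM. The acetyl-CoA carboxylases Acacb, whose malonyl-CoA restrains fat oxidation at mitochondria, and Acaca, whose malonyl-CoA feeds Fasn, had 8.07 and 5.03 FPKM. Pnpla3, a lipid droplet protein, was the lowest and lay under 1 FPKM in 9 of the 12 livers.

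**Figure D1:**
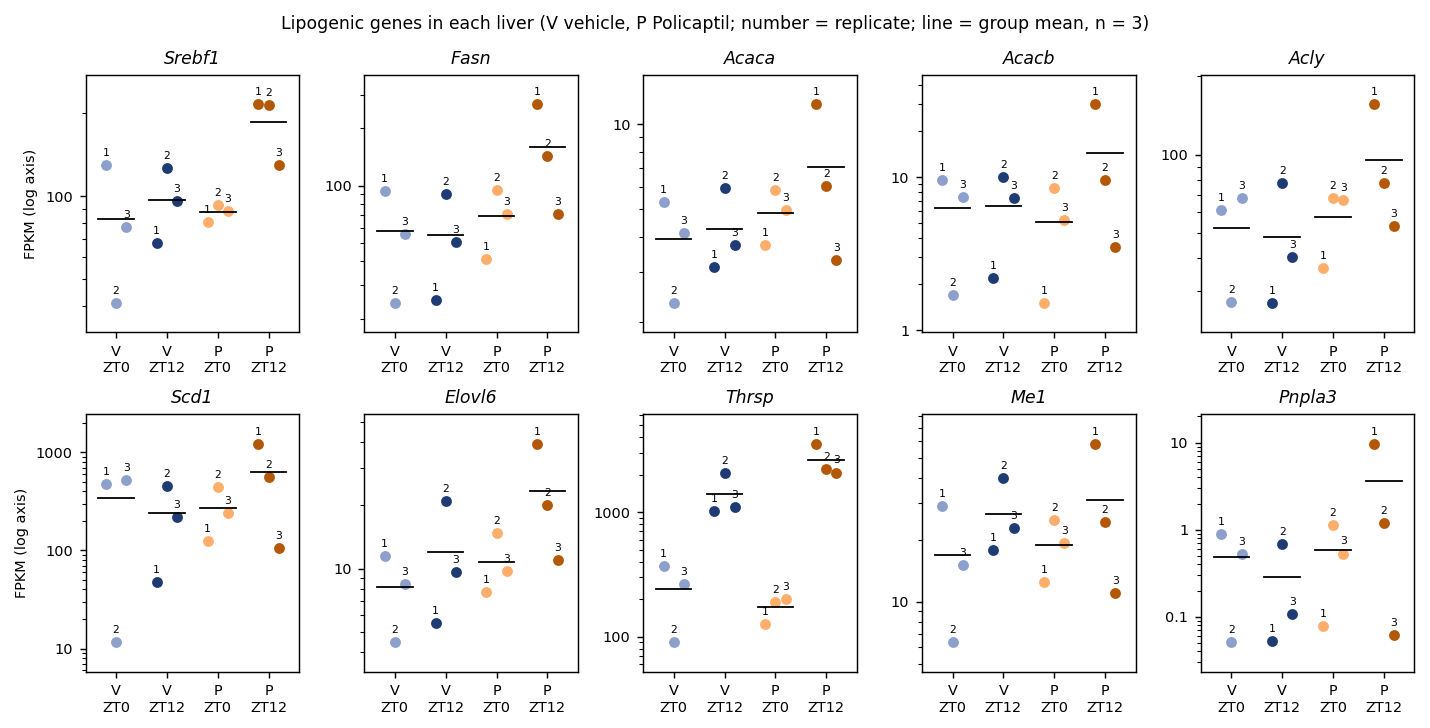
FPKM on a log axis for each of the 10 genes in each of the 12 livers, with 3 livers per group numbered by replicate and lines at the group means. Policaptil ZT12 replicate 1 is the highest liver for all 10 genes, and vehicle ZT0 replicate 2 the lowest for 8 of them.

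Single livers set much of the variation. Policaptil ZT12 replicate 1 had the highest level of all 10 genes among the 12 livers, and vehicle ZT0 replicate 2 had the lowest level of 8 of them. The ratio between these livers was 190.0 for Pnpla3, 105.6 for Scd1, 39.4 for Thrsp and 5.22 for Srebf1. Acly was lowest in vehicle ZT12 replicate 1 and Acacb in Policaptil ZT0 replicate 1.

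Scd1 shows the size of these differences within a group. Its levels at ZT0 with vehicle were 481, 11.7 and 528 FPKM in replicates 1, 2 and 3, a 45.3-fold range within 1 group. At ZT12 with vehicle they were 47.9, 455 and 218 FPKM. With Policaptil they were 125, 447 and 239.6 FPKM at ZT0 and 1232.5, 561 and 105.5 FPKM at ZT12. The 4 groups overlapped, and each of the vehicle groups, like Policaptil ZT12, held 1 liver far below its other 2.

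Pnpla3 behaved alike at much lower levels. With vehicle its ZT0 livers held 0.888, 0.0514 and 0.528 FPKM and its ZT12 livers 0.0532, 0.692 and 0.109 FPKM. With Policaptil the ZT0 livers held 0.0787, 1.13 and 0.533 FPKM and the ZT12 livers 9.77, 1.19 and 0.0611 FPKM. The 4 livers under 0.1 FPKM were those with the least Scd1 in their groups.

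The carboxylases differed in how far they spread. Acacb had 9.62, 1.70 and 7.47 FPKM at ZT0 and 2.20, 10.1 and 7.28 FPKM at ZT12 in vehicle mice, and 1.52, 8.56 and 5.25 FPKM and then 30.1, 9.61 and 3.49 FPKM in Policaptil mice. Acaca had 5.33, 2.35 and 4.13 FPKM and 3.13, 5.95 and 3.75 FPKM in vehicle mice, and 3.74, 5.86 and 4.99 FPKM and then 11.7, 6.03 and 3.33 FPKM in Policaptil mice. The same livers were low for both, but the highest liver exceeded the lowest by 19.8-fold for Acacb and by 5.0-fold for Acaca.

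Acly and Elovl6, which act before and after fatty acid synthase, were also low in those livers. Acly had 61.4, 27.1 and 68.0 FPKM at ZT0 and 27.0, 77.9 and 40.3 FPKM at ZT12 in vehicle mice, and 36.7, 68.4 and 67.2 FPKM and then 156.1, 77.7 and 53.1 FPKM in Policaptil mice. Elovl6 had 11.5, 4.48 and 8.45 FPKM and 5.51, 20.9 and 9.65 FPKM in vehicle mice, and 7.75, 14.7 and 9.75 FPKM and then 39.3, 20.1 and 10.98 FPKM in Policaptil mice. For these 4 genes all 4 groups overlapped, apart from Policaptil ZT12 replicate 1 standing above every other liver.

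The 10 genes deviated in the same direction within a liver. After subtraction of the group mean of log2(FPKM + 1), all 10 genes lay below their group mean in vehicle ZT0 replicate 2, vehicle ZT12 replicate 1, Policaptil ZT0 replicate 1 and Policaptil ZT12 replicate 3. All 10 lay above it in vehicle ZT0 replicates 1 and 3, vehicle ZT12 replicate 2, Policaptil ZT0 replicate 2 and Policaptil ZT12 replicate 1. The median deviation over the genes ran from -0.93 in vehicle ZT0 replicate 2 to 0.92 in Policaptil ZT12 replicate 1, while the median over all 9806 genes stayed between -0.02 and 0.03 in every liver. Each group thus held 1 liver in which all 10 genes were low and at least 1 in which all 10 were high, whatever its time or treatment. In Policaptil ZT12 replicate 3, the liver with muscle RNA, the median was -0.91. Its part in the low values was not tested, and the low livers of the other 3 groups had muscle markers like the rest.

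**Figure D2:**
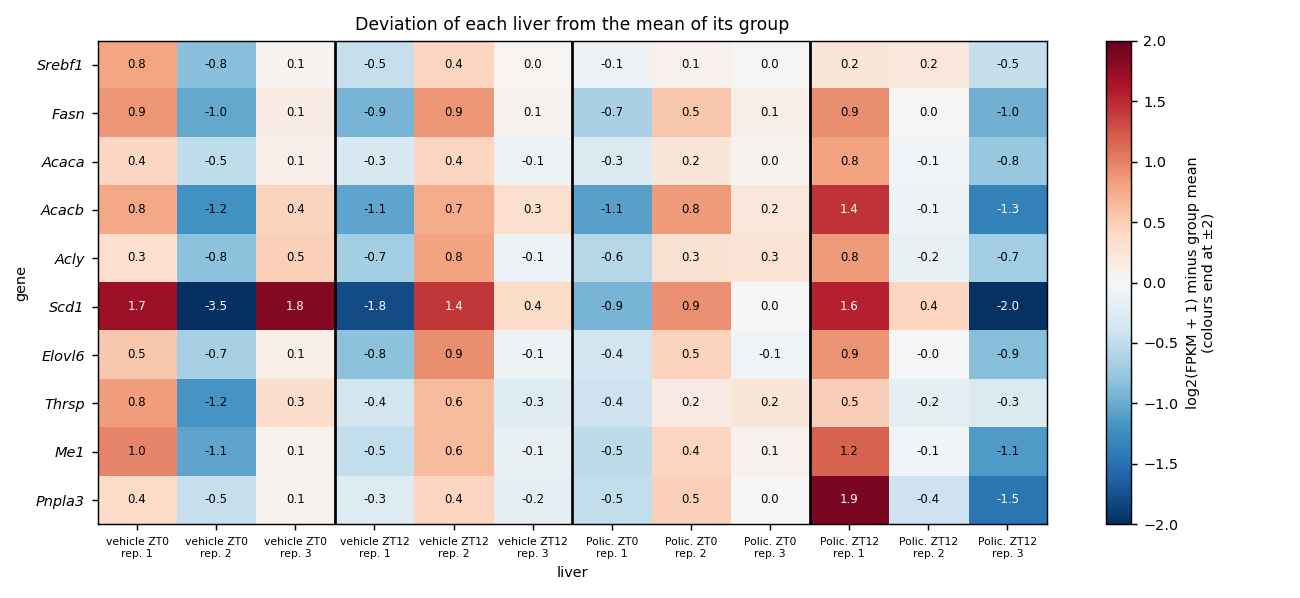
Deviation of each of the 12 livers from the mean of its group in log2(FPKM + 1), with genes in rows, livers in columns and black lines between groups. Whole columns share a colour: all 10 genes are below the group mean in 4 livers and above it in 5.

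The pooled standard deviation between livers of a group ranged from 0.51 for Acaca and Srebf1 to 2.01 for Scd1 on the log2 scale, with a median of 0.79 over the 10 genes, 5.61 times the median of 0.14 over all genes tested. Of the genes tested, 2.70% varied as much as Acaca, 0.744% as much as Acacb (1.11) and 0.326% as much as Scd1. The 45 pairs of these genes had correlations of deviations with a median of 0.89, from 0.56 for Srebf1 with Pnpla3 to 0.98 for Acaca with Me1. These are Pearson correlations over 12 livers that share 4 group means, given as a description. The correlations of Srebf1 with its targets were 0.91 for Scd1, 0.90 for Fasn and 0.89 for Thrsp, and 0.79 for Acly.

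**Figure D3:**
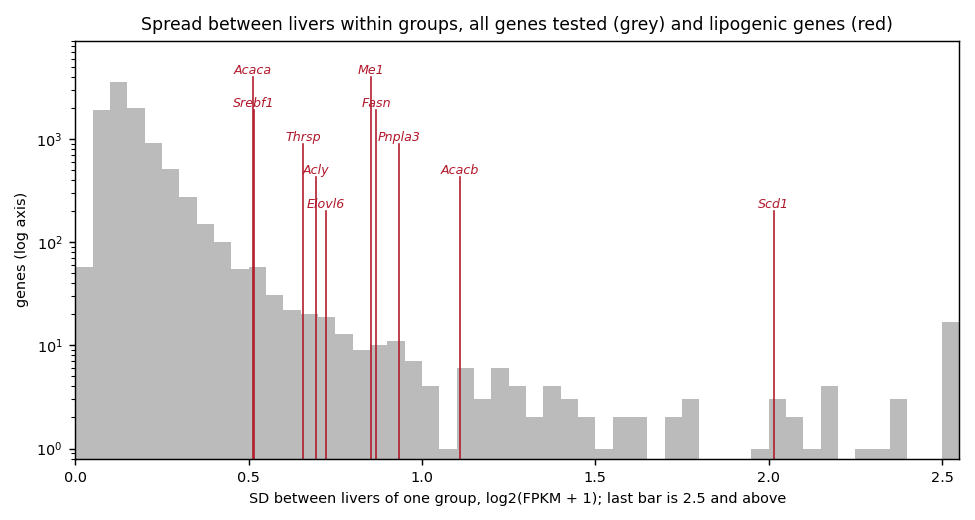
Pooled standard deviation between livers of the same group in log2(FPKM + 1) for the 9806 genes tested (grey bars, log axis of gene counts) and for the 10 lipogenic genes (red lines). The red lines lie between 0.51 and 2.01, against a median of 0.14 over all genes.

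The Srebf1 transcript did not always spread as its targets did. With Policaptil at ZT0 it had 80.9, 93.1 and 88.2 FPKM, a range of 1.15-fold, while in the same livers Scd1 ranged 3.59-fold, Acacb 5.64-fold and Pnpla3 14.3-fold. With Policaptil at ZT12, replicates 1 and 2 had 215 and 213 FPKM of Srebf1, whereas Fasn was 1.88-fold, Scd1 2.2-fold, Acacb 3.13-fold and Pnpla3 8.24-fold higher in replicate 1. The gene value sums the transcripts of SREBP-1a and SREBP-1c, which share most exons, and the cut, active protein was not measured.

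The first comparison asked how the genes differed between the start and the end of the active phase in vehicle-treated mice. Thrsp rose, and the other 9 genes lay between -0.21 (Pnpla3) and 0.78 (Me1) in log2 fold change with none past p under 0.05 by limma. Thrsp had 371, 90.5 and 264 FPKM at ZT0 and 1021, 2063.5 and 1102 FPKM at ZT12. Every liver of ZT12 was above every liver of ZT0, although replicate 2 of ZT0 was 4.1-fold below replicate 1. The mean went from 242.0 ± 141.6 to 1395.6 ± 579.8 FPKM (SD, n = 3), a log2 fold change of 2.67 (SE 0.53, limma adjusted p = 0.0274). The exact two-sided permutation test of 3 livers against 3 allows no p below 0.1, which Thrsp reached.

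So 1 of the 10 genes was higher and 0 lower with p under 0.05, where 14.4% of all genes tested were higher and 13% lower. With adjusted p under 0.05 it was 1 of 10 against 10.4% in both directions, and 1 of 10 was higher without overlap of the livers against 17.4%. The median log2 fold change was 0.15 for the 10 genes and 0.01 for all genes tested. It became -0.29 without vehicle ZT0 replicate 2, with 3 of 10 genes positive, and 0.59 without vehicle ZT12 replicate 1, with 9 of 10 positive. The adjusted p of Thrsp stayed under 0.05 in only 2 of the 6 fits that left out 1 liver, although the unadjusted p was under 0.05 in all 6.

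Srebf1 had 130.1, 41.2 and 77.4 FPKM at ZT0 and 67.5, 127 and 95.8 FPKM at ZT12 with vehicle, so its groups overlapped. The means were 82.9 ± 44.7 and 96.7 ± 29.7 FPKM (SD, n = 3), with a log2 fold change of 0.32 (SE 0.42). Fasn had 93.5, 24.3 and 56.0 FPKM and then 25.0, 90.1 and 50.6 FPKM, a log2 fold change of -0.05 (SE 0.58). In both groups of vehicle livers the ranges of Fasn were nearly the same.

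The same comparison in Policaptil-treated mice gave 2 genes that rose, Thrsp and Srebf1. Thrsp had 127, 189.8 and 201 FPKM at ZT0 and 3565, 2216 and 2086 FPKM at ZT12. The lowest liver at ZT12 thus exceeded the highest at ZT0 by a wide margin, and the ratio of the means was 15.2, against 5.77 in vehicle mice. Its log2 fold change was 3.90 (SE 0.25, limma adjusted p = 0.000659). Srebf1 went from 87.4 ± 6.15 to 185.8 ± 48.7 FPKM (SD, n = 3), with 215, 213 and 129.6 FPKM in the livers of ZT12. All 3 exceeded the highest liver of ZT0, at 93.1 FPKM, and the log2 fold change was 1.04 (SE 0.20, limma adjusted p = 0.0183).

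Genes past p under 0.05 were 2 of 10 higher and 0 lower, against 15.7% of all genes tested higher and 13.4% lower. The same 2 genes passed the adjusted p, against 12.4% of all genes, and were the 2 without overlap, against 19% of all genes that were higher without overlap. All 10 log2 fold changes were positive, with a median of 0.94 against 0.01 over all genes. The other 8 lay between 0.33 (Acaca) and 1.10 (Acacb), with standard errors of 0.36 to 0.88.

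The count depended on single livers. Without Policaptil ZT12 replicate 3, the liver with muscle RNA, all 10 genes were higher with p under 0.05 and the median was 1.46. Pnpla3 was among them through the liver that let it pass the minimum level. Of all 9806 genes, 1258 were higher in that fit. Without Policaptil ZT0 replicate 2, 4 of the 10 genes were called, with Fasn and Elovl6 added, where 1308 of all genes were higher. Without Policaptil ZT12 replicate 1 the median of the 10 genes was 0.29, with Acaca and Me1 below 0. Only the calls of Thrsp and Srebf1 remained there, where 1539 of all genes were higher. For example, Fasn had 41.1, 95.2 and 71.2 FPKM at ZT0 and 267, 142 and 70.7 FPKM at ZT12. Replicate 3 of ZT12 fell within the range of ZT0, and the log2 fold change of 1.08 (SE 0.49) became 1.56 without it and 0.61 without replicate 1. The calls of Thrsp and Srebf1 at p under 0.05 stood in all 6 fits that left out 1 liver. Only 1 of these 2 kept an adjusted p under 0.05 without Policaptil ZT0 replicate 1, Policaptil ZT0 replicate 3 or Policaptil ZT12 replicate 2.

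Policaptil was then compared with vehicle at each time. At ZT0 none of the 10 genes passed p under 0.05 in limma, in either direction, where 3.42% of all genes were higher and 5.81% lower, and 0% had an adjusted p under 0.05. With the Cyber-T version of the test the number was also 0 of 10, where 365 of all 9806 genes were higher and 478 lower. None of the 10 was higher without overlap, against 5.19% of all genes. Log2 fold changes ran from -0.29 for Thrsp (SE 0.49) to 0.69 for Scd1 (SE 1.39), with a median of 0.25 against -0.02 over all genes. Srebf1 had 82.9 ± 44.7 FPKM with vehicle and 87.4 ± 6.15 FPKM with Policaptil (SD, n = 3), and Fasn 57.9 ± 34.6 and 69.2 ± 27.1 FPKM (SD, n = 3). Without vehicle ZT0 replicate 2 the median was -0.20, 2 of the 10 were positive, and Thrsp was lower with p under 0.05 (log2 fold change -0.88). Of all 9806 genes, 459 were lower in that fit.

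At ZT12 Srebf1, Fasn and Thrsp were higher with Policaptil than with vehicle. Srebf1 had 67.5, 127 and 95.8 FPKM in vehicle livers against 215, 213 and 129.6 FPKM with Policaptil. The groups did not overlap, though the highest vehicle liver and the lowest Policaptil liver nearly met, and the log2 fold change was 0.94 (SE 0.28, limma adjusted p = 0.729). Thrsp lay between 1021 and 2063.5 FPKM in vehicle livers and between 2086 and 3565 FPKM in Policaptil livers, again without overlap and nearly touching, with a log2 fold change of 0.94 (SE 0.31, limma adjusted p = 0.729). Fasn lay between 25.0 and 90.1 FPKM in vehicle livers and between 70.7 and 267 FPKM in Policaptil livers. These groups overlapped, and the log2 fold change was 1.5 (SE 0.58, limma adjusted p = 0.729).

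By count 3 of 10 genes were higher and 0 lower with p under 0.05, against 3.07% and 3.67% of all genes, and 2 of 10 were higher without overlap against 5.88%. None of the 10 passed the adjusted p in limma, where 0% of all genes did. None did in the Cyber-T version, where 23 of all 9806 genes did. That version called 7 of the 10 at p under 0.05, where 336 of all genes were higher and 324 lower. These 7 included Pnpla3, which passed the minimum level through 1 liver. The median of the 10 log2 fold changes was 0.94, against -0.01 over all genes, and 9 of 10 were positive. Acly (0.96), Elovl6 (0.92), Scd1 (1.31), Pnpla3 (1.22), Acacb (0.78) and Acaca (0.50) did not pass, and Me1 was at -0.00 (SE 0.57). Me1 had 17.8, 39.8 and 22.9 FPKM in vehicle livers against 58.6, 24.4 and 11.1 FPKM in Policaptil livers, so that its Policaptil livers spanned all of its vehicle livers.

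The calls at ZT12 rested on single livers for all genes but Srebf1. Srebf1 passed p under 0.05 in each of the 6 fits without 1 liver, with log2 fold changes from 0.71 to 1.18. Fasn lost the call in 4 of these fits and Thrsp in 3. The number of genes called was 7 without Policaptil ZT12 replicate 3 (with Pnpla3, on the same liver), 5 without vehicle ZT12 replicate 2, 2 without Policaptil ZT12 replicate 2 and 1 without Policaptil ZT12 replicate 1, vehicle ZT12 replicate 1 or vehicle ZT12 replicate 3. The median stayed positive in these fits, from 0.50 to 1.32.

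**Figure D4:**
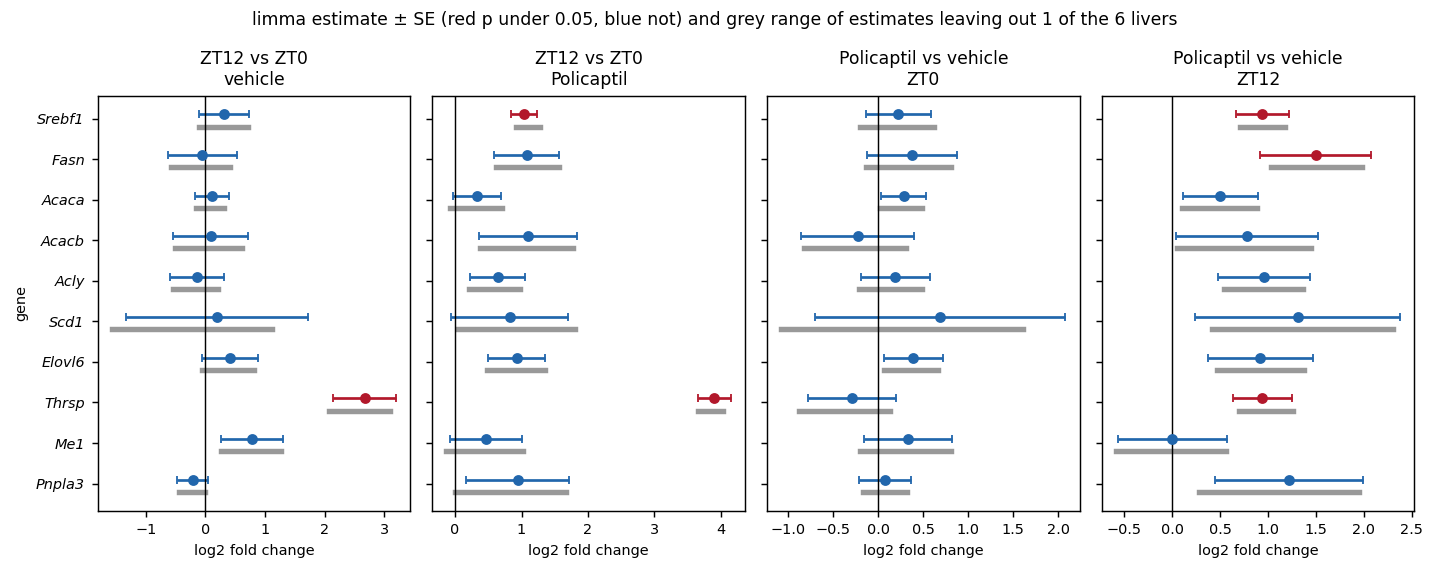
Log2 fold changes with their standard errors for the 10 genes in the 4 comparisons of 3 livers with 3 (red, p under 0.05 by limma; blue, not), and in grey the range of the estimate when each of the 6 livers is left out in turn. Thrsp lies apart from 0 in both comparisons of time, and most grey ranges at ZT0 and in vehicle mice cross 0.

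The interaction of time and treatment asks whether the change over time differed with Policaptil. By limma 0 of 10 genes passed p under 0.05, against 3.82% of all genes higher and 2.8% lower, and 0% of all genes passed the adjusted p. The Cyber-T version called 4 of the 10, with Pnpla3 among them, where 415 of all 9806 genes were higher and 308 lower. Without vehicle ZT0 replicate 2 limma called Srebf1 and Thrsp, where 395 of all 9806 genes were higher. Without vehicle ZT12 replicate 2 it called Thrsp, where 348 were higher. Without Policaptil ZT12 replicate 3, where 316 were higher, it called Pnpla3, which rested on the liver that let this gene pass the minimum level. Thrsp had the highest interaction, 1.23 (SE 0.65, limma adjusted p = 0.776), with an exact permutation p = 0.155 (two-sided, 400 arrangements of treatment within each time). Srebf1 had 0.72 (SE 0.51) and Fasn 1.13 (SE 0.85). The interaction of Thrsp passed p under 0.05 in the Cyber-T version and lay between 0.81 and 1.82 in the fits without 1 liver. Over both times, Policaptil against vehicle gave positive values for all 10 genes with a median of 0.58, against -0.02 over all genes. Srebf1 (0.58, SE 0.25, limma adjusted p = 0.468) and Fasn (0.93, SE 0.42, limma adjusted p = 0.478) passed p under 0.05, which is 2 of 10 higher and 0 lower against 4.03% and 6.42% of all genes, with 0% past the adjusted p. The exact permutation p was 0.085 for Srebf1 and 0.095 for Fasn (two-sided). This call fell to 0 of 10 in 8 of the 12 fits without 1 liver. Among them were those without vehicle ZT0 replicate 2 and without Policaptil ZT12 replicate 1. The count rose to 5 without Policaptil ZT12 replicate 3, where 380 of all 9806 genes were higher. Pnpla3 was again among the 5 on the liver that let it pass the minimum level. The 6 comparisons share livers, so likeness between them is not a result.

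Ordered by group mean, most steps were smaller than the spread. For Srebf1 the order was vehicle ZT0 (82.9 FPKM), Policaptil ZT0 (87.4 FPKM), vehicle ZT12 (96.7 FPKM) and Policaptil ZT12 (185.8 FPKM), and only the last step separated the livers of neighbouring groups. For Thrsp the order was Policaptil ZT0 (172.8 FPKM), vehicle ZT0, vehicle ZT12 and Policaptil ZT12 (2622 FPKM), with overlap at the first step only. For the other 8 genes every pair of neighbours overlapped.

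Thrsp was also set against the other lipogenic genes in the same liver. Its log2(FPKM + 1) minus the mean of the other 9 genes was 3.65, 3.50 and 3.54 in the vehicle livers of ZT0, whose own levels differed 4.1-fold. It was 5.79 to 6.45 at ZT12 with vehicle, and 2.70 to 3.19 and 5.5 to 6.89 at these times with Policaptil. The mean shift was 2.5 with vehicle and 3.09 with Policaptil. On this relative scale Me1 was higher at ZT12 than at ZT0 in vehicle livers and lower in Policaptil livers. It went from between -0.95 and -0.38 at ZT0 to between -0.35 and 0.04 at ZT12 with vehicle, and from between -0.50 and -0.45 to between -1.37 and -1.06 with Policaptil. Acly shifted by -0.62 with vehicle and by -0.54 with Policaptil, without overlap in either. Fasn shifted by -0.53 with vehicle, without overlap, and by -0.05 with Policaptil, with overlap. Acaca shifted by -0.34 with vehicle, with overlap, and by -0.88 with Policaptil, without. For each gene but Thrsp, the other 9 genes include Thrsp, whose rise over time lowers the shift of that gene. No share over all genes was worked out on this scale. These differences describe unequal change among the 10 genes and carry no test.

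The list of genes that control SREBP-1c held 18 genes, 16 of them tested, and their spread between livers differed. Nr1h3, which encodes LXRα, stayed between 78.8 and 89.0 FPKM in all 12 livers, and Scap between 33.7 and 47.8 FPKM. Mlxipl, which encodes ChREBP, ranged from 91.2 to 158 FPKM. Insig1 ranged from 40.5 to 149 FPKM, and its standard deviation between livers of a group was 0.49 on the log2 scale, near the 0.51 of Srebf1. That of Mid1ip1 was 0.38, of Mlxipl 0.14 and of Scap 0.09.

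Insig2, whose protein retains SREBPs and whose liver form insulin represses, fell over time in both treatments. It had 107, 113 and 116 FPKM at ZT0 and 48.0, 46.0 and 38.5 FPKM at ZT12 with vehicle, a log2 fold change of -1.33 (limma adjusted p = 0.00258). With Policaptil it fell by 1.28 (limma adjusted p = 0.00342), from 104 ± 16.2 to 42.1 ± 5.20 FPKM (SD, n = 3). Insig1, itself a SREBP target, fell by 0.94 and by 0.68, with overlap of the livers and adjusted p of 0.134 and 0.1496 in limma. Bhlhe40, a repressor of the clock, rose by 0.83 with vehicle and by 1.61 with Policaptil (limma adjusted p = 0.023 and 0.00272).

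In this list 1 gene was higher and 2 lower over time with vehicle, and 4 higher and 6 lower with Policaptil, at p under 0.05. Over all genes the shares were 14.4% and 13% with vehicle and 15.7% and 13.4% with Policaptil. With Policaptil these included Mlxipl (0.41) among the higher genes, and Irs2 (-0.70), an insulin receptor substrate, Srebf2 (-0.42), the gene of SREBP-2, and Usf1 (-0.35), an E-box factor, among the lower. Irs2 was low in level, between 0.45 and 2.14 FPKM over the 12 livers. For Policaptil against vehicle, 1 gene was higher and 0 lower at ZT0, Usf2 (0.24), which lost the call in 3 of the 6 fits without 1 liver. At ZT12 Bhlhe40 (0.46), Mlxipl (0.35) and Mid1ip1 (0.69) were higher and Irs2 (-0.36) lower. Bhlhe40 kept the call in all 6 fits without 1 liver, and each of the other 3 lost it in 4 of 6. The counts of 3 higher and 1 lower of 16 compare with 3.07% and 3.67% of all genes. Mid1ip1 is a relative of Thrsp whose protein promotes assembly of acetyl-CoA carboxylase. Its livers at ZT12 had 44.5, 74.0 and 57.0 FPKM in vehicle mice against 122, 94.1 and 69.7 FPKM in Policaptil mice, and overlapped. None of the 16 had an adjusted p under 0.05 for treatment.

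Of the genes of sugar entry and ChREBP targets, 4 of 8 were higher and 1 lower over time with vehicle, where 14.4% and 13% of all genes were, and 6 of 8 were higher and 1 lower with Policaptil, where 15.7% and 13.4% were. The liver pyruvate kinase Pklr rose by 1.48 (limma adjusted p = 0.0236) with vehicle and by 1.39 (0.0524) with Policaptil, and the glucose transporter Slc2a2 by 0.83 and by 0.43 (limma adjusted p = 0.00536 and 0.0184). Tkfc, an enzyme of fructose use, rose by 0.60 with vehicle and by 0.88 with Policaptil. Khk, the fructokinase, rose by 0.64 with Policaptil. Gpd1, which makes glycerol phosphate, was lower over time with vehicle (-0.23), and with Policaptil than with vehicle at ZT12 (-0.17), calls lost in 4 and in 5 of the 6 fits without 1 liver.

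Of the desaturases, elongases and glycerolipid partners, 10 of 12 were tested, and 2 were higher and 1 lower over time in each treatment. These counts were close to the shares over all genes, 14.4% and 13% with vehicle and 15.7% and 13.4% with Policaptil. Lpin1, a phosphatidate phosphatase, rose from 5.59 ± 0.464 to 40.6 ± 10.01 FPKM in vehicle mice, and from 7.64 ± 2.11 to 55.2 ± 18.8 FPKM in Policaptil mice (SD, n = 3). Its log2 fold changes were 2.63 and 2.67, the highest of the listed genes other than Thrsp. Dgat2, which completes triglyceride synthesis, rose by 0.59 and by 0.71, and Elovl1 fell by 0.25 and by 0.21. The Elovl1 call with Policaptil was lost in 5 of the 6 fits without 1 liver. In the Cyber-T version it was lost in both treatments. None of the 10 passed p under 0.05 for treatment at ZT0 or ZT12 in limma. The 7 genes tested for supply of acetyl-CoA, citrate and NADPH gave 0 calls in any of the 6 comparisons in limma.

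Several SREBP-2 genes of cholesterol synthesis fell over time. With vehicle 0 of 15 were higher and 6 lower at p under 0.05, with a median of -0.73. Of these 6, Sqle, Idi1 and Cyp51 each lost the call in 3 of 6 fits without 1 liver, and Mvk in 4. Mvd and Hmgcs1 kept it in all 6 fits. With Policaptil 0 were higher and 11 lower, with a median of -1.21. Over all genes 14.4% were higher and 13% lower with vehicle, and 15.7% and 13.4% with Policaptil, with a median of 0.01 in both. Mvd fell by 1.97 with vehicle (limma adjusted p = 0.0423) and by 1.85 with Policaptil, and Hmgcs1 by 1.32 and by 2.26. Hmgcs1 had 225, 75.1 and 179 FPKM at ZT0 and 43.6, 63.3 and 67.8 FPKM at ZT12 with vehicle. None of the 15 passed p under 0.05 for treatment at ZT0 or ZT12. All 15 were positive at ZT0 with a median of 0.44, where 4412 of all 9806 genes were positive with a median of -0.02. In vehicle ZT0 replicate 2 all 15 lay below their group mean, with a median deviation of -0.72, and values without this liver are not given here.

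**Figure D5:**
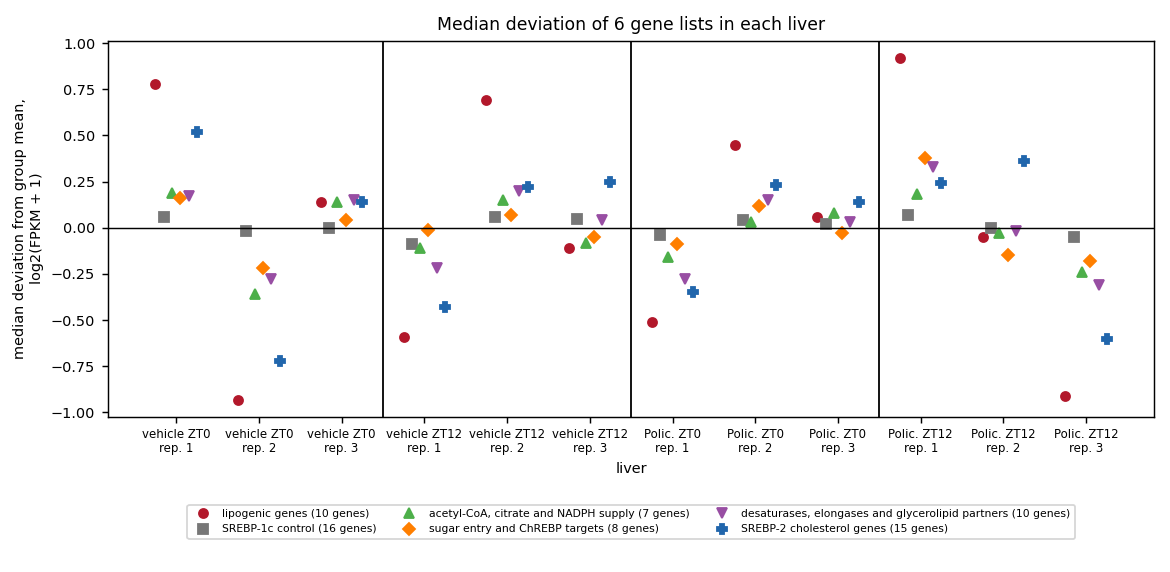
Median deviation from the group mean in log2(FPKM + 1) of 6 gene lists in each of the 12 livers. The lipogenic genes (red) range from -0.93 to 0.92, the SREBP-2 genes (blue) from -0.72 to 0.52 and the genes that control SREBP-1c (grey) from -0.09 to 0.07.

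The SREBP-2 genes were low in the same livers as the lipogenic genes. All 15 lay below the group mean in vehicle ZT0 replicate 2, vehicle ZT12 replicate 1, Policaptil ZT0 replicate 1 and Policaptil ZT12 replicate 3, the 4 livers in which all 10 lipogenic genes were low. The lists parted in Policaptil ZT12 replicate 2, with medians of 0.36 for the SREBP-2 genes and -0.05 for the lipogenic genes, and in vehicle ZT12 replicate 3, with 0.25 and -0.11. Among all other genes tested, those most like the mean of the 10 genes over the 12 livers, after subtraction of group means, were Pgd (Pearson r = 0.986), Mid1ip1 (0.977), Shmt1 (0.971), Prss8 (0.971) and Camk1d (0.967). Pgd, an NADPH-producing enzyme of the pentose phosphate path, ranged from 14.7 to 34.6 FPKM. Among those most like Srebf1 alone were Ttc23 (0.982), Cyb5b (0.963), Zfyve21 (0.963) and Dbi (0.960).

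On the genome (GRCm38, GENCODE vM21), Srebf1 (ENSMUSG00000020538.15) lies on chromosome 11 from 60199089 to 60222581 and Fasn (ENSMUSG00000025153.9) on chromosome 11 from 120805846 to 120824547, both on the minus strand. Thrsp (ENSMUSG00000035686.8) lies on chromosome 7 from 97412938 to 97417730, also on the minus strand. In this annotation Srebf1 overlaps Rai1, Acaca Gm11437, Elovl6 Gm35986 and Me1 A330041J22Rik, and how shared reads were assigned was not stated.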

How the data were processed

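Liver RNA of 12 mice was sequenced. The authors deposited 1 table of FPKM values per gene. Its making is described in 2 ways: the methods name ELAND alignment to mm10 with UCSC splice junctions, unique reads and RPKM from stranded mRNA libraries, while the submitters' processing notes list TopHat and Cuffnorm on mm10 (GRCm38) and the labels the TruSeq RNA kit v2. Versions of TopHat and Cuffnorm were not given in the sources used here. Read totals are unknown, and low values did not step clearly enough to give relative depth: for genes under a mean of 0.1 FPKM, the most common ratio between 2 livers (bins of 0.01 log2) held at most 1.49% of genes. FPKM summed to 634684 to 759355 per liver.

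Of 24138 lines, 289 repeated a symbol, of which only the most abundant line stayed. Genes averaging 1 FPKM or more were tested as log2(FPKM + 1), a scale that understates changes of low genes, with limma 3.58.1 in R 4.3.3 (eBayes with trend), two-sided, at p under 0.05 as in the study and with Benjamini-Hochberg adjustment over 9806 genes. Pairs of groups were fitted on their 6 livers, the interaction and the effect over both times on all 12. Exact permutation used 20 arrangements for 3 against 3 and 400 within times. The study's Cyber-T test was imitated (window of 101 genes, weight 10). Fits were tested on simulated data. The members and lists were chosen with earlier results of these data known. Named besides the 10 genes are list genes with p under 0.05, at most 6 per list and comparison, and Nr1h3, Mlxipl, Insig1, Insig2, Scap and Srebf2. Of 71 listed symbols, 3 (Tkt, Scd2, Acsl3) stand under combined symbols and were not used. Macrophage markers summed to 21.0 to 52.9 FPKM, exocrine pancreas markers to 31.1 to 76.4 FPKM with 8 of 12 at 0 in all livers, and the 2 red blood cell markers found to 83.3 to 169 FPKM. Labels give the livers as biological replicates. Some genes that the naming rule would name are not reported here.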

Additional observations from a re-analysis of the deposited data

Results flagged for a closer look

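Me1 relative to the other 9 lipogenic genes was marked because all 3 livers of ZT12 lay above those of ZT0 with vehicle and below them with Policaptil. Each liver is from another mouse, and the level of Me1 itself had positive log2 fold changes in both treatments (0.78 and 0.46, neither past p under 0.05 in limma). On log2(FPKM + 1) it shifted by 0.41 from ZT0 to ZT12 with vehicle and by -0.74 with Policaptil, a difference of -1.15. The difference was not tested. The other 9 genes include Thrsp, whose rise was 2.67 with vehicle and 3.90 with Policaptil, which makes the difference more negative. It was -1.29 with a pseudocount of 0.1 FPKM and lay between -1.26 and -0.98 when any 1 liver was left out, alternatives chosen after seeing the data.

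For 3 listed genes the change over time differed between the treatments at p under 0.05 in limma, and none passed adjustment over all genes. They were 2 higher of the 16 tested that control SREBP-1c and 1 lower of the 8 of sugar entry. The other lists gave 0 of 7, 0 of 10 and 0 of 15. Over all genes 3.82% were higher and 2.8% lower. The clock repressor Bhlhe40 had an interaction of 0.77 (limma adjusted p = 0.597, exact permutation p = 0.025). It had 26.2 ± 5.15 and 47.0 ± 4.31 FPKM at ZT0 and ZT12 in vehicle mice, and 21.0 ± 4.37 and 65.3 ± 7.99 FPKM in Policaptil mice (SD, n = 3). Mlx, the partner of ChREBP, had 0.40 (limma adjusted p = 0.663, exact permutation p = 0.02). Its means were 25.5 and 21.4 FPKM in vehicle mice, and 20.9 and 23.4 FPKM in Policaptil mice. Slc2a2 had -0.40 (limma adjusted p = 0.525, exact permutation p = 0.015), with means of 66.3 and 118 FPKM in vehicle mice, and of 82.9 and 112 FPKM in Policaptil mice. Slc2a2 lost the call in the Cyber-T version. These 3 kept p under 0.05 when any 1 of the 12 livers was left out.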

How the results depend on the processing

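Read totals are unknown, so the spread of 3 livers sets the precision. Over the 10 genes and 6 comparisons, leaving out 1 liver gave 480 estimates, of which 391 kept direction and side of p under 0.05, 24 lost the call, 27 gained it and 38 changed sign. Me1 at ZT12, at -0.00, is not among the 38, and lay between -0.59 and 0.56. For the other named genes, 72 of 372 such estimates lost the call and 0 changed sign. The other settings gave 514, of which 487 kept both, 10 lost the call, 17 gained it and 0 changed sign. The cause of each change was not tested. The replicate numbers did not pair the livers (4 of 18 same-number pairs correlated over 0.1, r from -0.28 to 0.34). With the replicate number as a block the genes past p under 0.05 were 2 at ZT12 (without Fasn) and 0 over both times, and 0 had an adjusted p under 0.05 over time with vehicle. It changed no other count by over 1.5 times.

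The Cyber-T version called 2 genes over time with vehicle, 6 with Policaptil (4 adjusted), 7 for Policaptil at ZT12, 4 in the interaction and 6 for Policaptil over both times (1 adjusted). Pnpla3, which passed the minimum level through 1 liver, was among those at ZT12, in the interaction and over both times. Of all 9806 genes, this version called 1313 higher over time with vehicle and 1448 with Policaptil (1584 adjusted in both directions). It called 336 higher at ZT12, 415 in the interaction and 416 over both times (79 adjusted in both directions). Without a minimum FPKM the adjusted calls over time were 0 with vehicle and 1 with Policaptil, and 0 genes passed over both times. A fit of all 12 livers left 1 adjusted call over time with Policaptil. Over both times 1 gene passed with a minimum of 5 FPKM, without the trend or with quantile normalization.

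Leaving out 1 liver, the genes past p under 0.05 ranged from 1 to 2 over time with vehicle (adjusted 0 to 1), from 2 to 10 with Policaptil (adjusted 1 to 2), from 0 to 1 at ZT0, from 1 to 7 at ZT12, from 0 to 5 for Policaptil over both times and from 0 to 2 in the interaction. The counts of 10, 7 and 5 include Pnpla3, through the liver that let it pass the minimum level. Of all 9806 genes, 1031 to 1470 were higher over time with vehicle in these fits and 1258 to 1539 with Policaptil. For Policaptil against vehicle, 230 to 347 were higher at ZT12 and 271 to 491 over both times, and in the interaction 316 to 520. Between 339 and 719 were lower at ZT0, the direction of the call there. Log2 fold changes that changed sign ranged as follows. Over time with vehicle they were Srebf1 -0.10 to 0.72, Fasn -0.57 to 0.41, Acaca -0.15 to 0.31, Acacb -0.51 to 0.62, Acly -0.54 to 0.21, Scd1 -1.57 to 1.12 and Elovl6 -0.06 to 0.82. With Policaptil they were Acaca -0.07 to 0.71 and Me1 -0.13 to 1.02. For Policaptil at ZT0 they were Srebf1 -0.20 to 0.62, Fasn -0.14 to 0.81, Acacb -0.83 to 0.31, Acly -0.22 to 0.48, Scd1 -1.08 to 1.61, Thrsp -0.88 to 0.13, Me1 -0.20 to 0.81 and Pnpla3 -0.17 to 0.32. For the interaction they were Acaca -0.18 to 0.60, Scd1 -0.30 to 2.39 and Me1 -0.91 to 0.24, and over both times Acacb -0.09 to 0.61 and Me1 -0.13 to 0.44.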
